A study of Mus musculus with 5 samples.

Results

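Guides to 15 genes for histone acetyltransferases, their scaffolds, bromodomain proteins and ING proteins were followed through a pooled knockout screen of mouse embryonic stem (ES) cells. The 15 are every gene of the library whose name begins with KAT, BRD or BRPF, or with ING and a number, together with Ep300, Crebbp and Trrap: 15 of 1682 genes, with 150 of 17820 guides. Brdt was taken in because its name begins with BRD, and without it 14 genes remain. Lentivirus brought 1 guide RNA of the pool into a typical cell, and Cas9 cuts the gene it matches. A guide that loses its share of reads can mark cells that were lost from the culture or grew more slowly than the others. Shares against the plasmid pool also shifted for guides without a target, the non-targeting guides described below. Transduced cells gave 1 library each at day 5, day 8 and day 12, and the plasmid pool of the guide library gave 2. The genotype given for all 5 libraries is Ainv15(iNgn2 Tubb3::GFP), with no other line or clone, and the transduced cells stayed in ES cell medium with Zeocin, which kills cells that were not transduced. Whether the 3 days are serial samples of 1 culture is not stated. Days are counted from transduction in the titles but from selection, for the first of them, in the treatment protocol, so only the slopes per day use them as numbers.

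Histone acetyltransferases place acetyl groups on lysines of histone tails, and bromodomains are the protein folds that bind such acetylated lysines. Kat7, also called HBO1, Kat6a, also called MOZ, and Kat5, also called TIP60, belong to the MYST family of these enzymes. They work in complexes held together by scaffold proteins such as those of Brpf1, Brpf3 and Trrap, with small ING proteins that read methylated histone H3. Ep300 and Crebbp code for the paralogous coactivators p300 and CBP, which acetylate histones at enhancers and promoters.

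The 8 analysed guides to Kat7 are printed first because they carried the deepest change of the 15 genes. Each is written 5′ to 3′ without its PAM, and capitals mark bases that lie in a run of at least 10 shared with another guide to the gene, on the same or the opposite strand.
TFMouse_06223: CTACCGCAGCTACTGGAAGG
TFMouse_06228: aagCTACCGCAGCTACTGGA
TFMouse_06222: gtacctCCTTCCAGTAGCTG
TFMouse_06224: GCATGTACTGAGGCAtggtg
TFMouse_06226: tagccCTGTCGCATGTACTG
TFMouse_06229: CTGTCGCATGTACTGAGGCA
TFMouse_06225: atgagccccaggtctgacag
TFMouse_06230: tccaaagtagaagagaaagt

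The first 3 of these overlap each other and so do the next 3, so the 8 guides fall into 4 sets that share no such run. Guides that overlap are not independent samples of the gene. The places of the cuts within exons and protein domains were not analysed here.

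The 10 guides to Brpf1 show the contrast with Kat7 in layout, since 2 of them overlap and the other 8 stand alone.
TFMouse_01193: cctgctacatttgtaaacag
TFMouse_01200: TGTAACTCTTGTAAACCTTg
TFMouse_01196: AAGGTTTACAAGAGTTACAg
TFMouse_01195: gtacatcgagaaatctgcag
TFMouse_01194: tggatatcatgaatgagcgg
TFMouse_01197: tgtcttgcggacgctaaagg
TFMouse_01191: ggaaaacactgagacacctg
TFMouse_01199: tgtcacagtaggctgtcttg
TFMouse_01192: gccaccatatgagtgccctg
TFMouse_01198: gtcaggcaagcataagaaca

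The 10 guides to Kat5 are shown because their day 12 changes had the largest SD, from a guide with no read left to one that hardly changed.
TFMouse_06208: ccccatcaggatctccaaga
TFMouse_06201: gaggttgagatactgcagtg
TFMouse_06204: AGTAACTTCGGTaggatagg
TFMouse_06205: ttgggaccAGTAACTTCGGT
TFMouse_06210: ctctgcctccctaccagcgc
TFMouse_06206: atggggctgaagtcggagag
TFMouse_06207: taagcagcttgccatagccc
TFMouse_06202: atccaCAGAAGATTACAATG
TFMouse_06209: ggccaCATTGTAATCTTCTG
TFMouse_06203: tcgaaagtagaagggaagac

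Read totals ran from 1008492 at day 12 to 3541896 in plasmid library 1. Only guides that had at least 30 reads in each of the plasmid libraries were analysed, 130 of the 150, at 7 to 10 for each of the 15 genes. Of the 20 guides set aside, 4 had no reads in any library. A typical analysed guide to the 15 genes was read 178 times in plasmid library 1, 65.5 times in plasmid library 2, 47 times at day 5, 39 times at day 8 and 33 times at day 12 (medians). Abundances are CPM scaled with TMM factors. A guide's change is log2 of its CPM plus 1 over the plasmid mean plus 1, and a gene's score is the median over its guides, with the SD over those guides. Reads are not separate cells, and each interval given covers counting error only.

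With 1 library per day, a score has no replicate check, and a gene was described as past 2-fold when its score was at or below -1 or at or above 1. Scores of days 5, 8 and 12 share the plasmid libraries. The slope per day over all 5 libraries was tested on the summed reads of each gene with the quasi-likelihood test of edgeR, adjusted by Benjamini-Hochberg over 1682 genes. It has 3 residual degrees of freedom, which come from the difference between the plasmid libraries and from bends in the course over days, not from replicate cultures. "Fell" is used for genes whose slope was negative and passed this test at 0.05.

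The non-targeting guides, the control guides of the library, did not stay at 0. Over 893 of them the median change was 0.41 (day 5), 0.54 (day 8) and 0.58 (day 12), against a median score of 0.0090 over all genes at day 12. Taken guide by guide, the slope test called 45.5% of them higher and 4.82% lower, so a slope call alone is a weak statement here. Guides were therefore also set against the middle 90% of the non-targeting guides, which lay between -0.81 and 1.53 at day 12.

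At day 12, 4 of the 15 genes stood past 2-fold below the plasmid pool: Kat7, Brpf1, Kat5 and Ep300. That is 26.7% of the 15, where 15.8% of all genes did so. No member reached a score of 1, as 1.19% of all genes did. The slope was called lower for 6 of the 15, or 40%, against 25.2% of all genes. It was called higher for 4, or 26.7%, against 34.7% of all genes. The median score of the 15 was -0.26, and every one of them lay below the non-targeting median, as did 93.8% of all genes.

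Of the 130 kept guides, 49 (37.7%) lay below the 5th percentile of the non-targeting guides at day 12, against 25.6% of all guides to genes. No guide lay above the 95th percentile, where 1.79% of all guides to genes did. Of those 49, 30 belonged to the 35 guides of Kat7, Brpf1, Kat5 and Ep300 and 19 to the 95 guides of the other 11 genes. Those 4 genes were set apart by the day 12 changes of the same guides, so their higher share follows from that choice. The 19 of 95 is a smaller share than the 25.6% over all guides to genes, and the same choice lowers it. Tested guide by guide over all 15336 kept guides, the edgeR slope was called lower (Benjamini-Hochberg adjusted) for 46 of the 130, or 35.4% against 24% of guides to genes, and higher for 19, or 14.6% against 16.1%.

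Kat7, the acetyltransferase of the HBO1 complexes (chromosome 11, 95271853 to 95310246, GRCm38), had the lowest score of the 15 genes. Its 8 guides together held 378 CPM in plasmid library 1 (95% Clopper-Pearson interval 358 to 399) and 401 CPM in plasmid library 2 (368 to 437). They held 194 CPM at day 5 (168 to 222), 89.7 CPM at day 8 (72.5 to 110) and 27.2 CPM at day 12 (17.6 to 40.2). None of these intervals overlapped between days, and each library of cells lay below both plasmid libraries.

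The score of Kat7 was -1.01 at day 5 (SD 0.36), -2.13 at day 8 (SD 1.21) and -3.44 at day 12 (SD 0.86, n = 8 guides). At day 12 that left 9.19% of the plasmid abundance, and Kat7 had the rank 14 from the bottom of 1682 genes. Kat7 fell by 0.29 log2 units per day (edgeR quasi-likelihood adjusted p = 7.2e-05), and all 8 guides were below 0 at each of the 3 days.

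Every guide to Kat7 lay below the 5th percentile of the non-targeting guides at day 12, and the guides ran from -5.04, where no read was left and the value depends on the added 1, to -2.78. This held for all kept guides of 2 of the 15 genes, Kat7 and Brpf1 (13.3%), and of 3.8% of all genes.

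The reads of single Kat7 guides show how few were left. TFMouse_06223 had 107 and 44 reads in plasmid libraries 1 and 2, 13 at day 5, 0 at day 8 and 0 at day 12. TFMouse_06228, which overlaps it on the same strand, had 109 and 42, 10, 3 and 0 reads in the same order. With 0 reads taken as a limit of 3, these guides were at least 9.76-fold and at least 9.62-fold lower at day 12 than in the plasmid pool.

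TFMouse_06222, which overlaps both from the opposite strand, had 186 and 57 plasmid reads, 26 at day 5, 6 at day 8 and 3 at day 12, a change of -3.53. The second overlapping set, TFMouse_06224, TFMouse_06226 and TFMouse_06229, had 4, 3 and 5 reads at day 12 and changes of -3.36, -3.02 and -2.78. The guides that stand alone, TFMouse_06225 and TFMouse_06230, had 8 and 2 reads at day 12, with changes of -3.36 and -3.95. All 4 sets of analysed Kat7 guides were down to single-digit reads, but not every guide left out by the plasmid filter was. Of the 2 Kat7 guides left out, TFMouse_06221 had 100 and 24 plasmid reads, 20 at day 5, 14 at day 8 and 11 at day 12, and TFMouse_06227 had 21 and 2 plasmid reads and at most 1 in the cells.

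Brpf1, a bromodomain scaffold that joins the MYST enzymes of the MOZ, MORF and HBO1 complexes to chromatin (chromosome 6, 113306863 to 113324862), had the next lowest score. Its 10 guides together held 568 and 543 CPM in plasmid libraries 1 and 2, 345 CPM at day 5 (95% interval 310 to 383), 222 CPM at day 8 (195 to 253) and 129 CPM at day 12 (106 to 154). Its score was -0.74 at day 5 (SD 0.70), -1.18 at day 8 (SD 0.89) and -2.19 at day 12 (SD 1.17, n = 10 guides), which left 21.9% of the plasmid abundance. Brpf1 fell by 0.17 log2 units per day (edgeR quasi-likelihood adjusted p = 5.04e-05).

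All 10 guides to Brpf1 were below 0 at day 12 and the slope of each was called lower on its own. The lowest, TFMouse_01193, had 266 and 106 plasmid reads, 15 at day 5, 5 at day 8 and 1 at day 12, a change of -5.24. The other 9 lay between -2.85 and -1.08. The overlapping pair, TFMouse_01196 and TFMouse_01200, which match opposite strands, stood at -2.30 and -2.85.

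Kat5, the acetyltransferase of the TIP60 complex (chromosome 19, 5603014 to 5611556), took a different course. Its 10 guides held 617 and 635 CPM in plasmid libraries 1 and 2, 442 CPM at day 5 (95% interval 403 to 485), 246 CPM at day 8 (217 to 278) and 249 CPM at day 12 (217 to 283). The sum at day 12 was thus within counting error of that at day 8, while for Kat7 and Brpf1 it was lower again. The score was -0.80 at day 5 (SD 0.86), -1.94 at day 8 (SD 1.35) and -1.36 at day 12 (SD 1.70, n = 10 guides). Kat5 fell by 0.12 log2 units per day (edgeR quasi-likelihood adjusted p = 0.000273).

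The guides to Kat5 had the largest SD of the 15 genes at day 12, from 0 reads to a change of -0.19, with 7 of 10 below the 5th percentile of the non-targeting guides. The guide with 0 reads has a change of -5.69, which depends on the added 1, and so does that SD. TFMouse_06208 had 172 and 69 plasmid reads, 12 at day 5, 2 at day 8 and 0 at day 12, and was at least 15.5-fold lower at day 12 than in the plasmid pool. TFMouse_06203, at the other end, had 330 and 139 plasmid reads, 140 at day 5, 114 at day 8 and 80 at day 12, a change of -0.19. Overlapping guides stood near each other in one case and less so in the other: TFMouse_06202 and TFMouse_06209, from opposite strands of one stretch, had -0.65 and -0.22, and TFMouse_06204 and TFMouse_06205 had -2.90 and -1.80.

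Across the 15 genes, 29 pairs of overlapping guides differed by a median of 0.65 in their day 12 change (quartiles 0.30 and 1.36), and 477 pairs of other guides to 1 gene by 0.86 (quartiles 0.45 and 1.54). Among all other genes the medians were 0.68 over 3334 overlapping pairs and 0.74 over 52075 other pairs. This is a description, since pairs share guides and overlapping guides are also closer in GC content.

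Ep300, which codes for p300 (chromosome 15, 81586209 to 81652077), was the last of the 4 past 2-fold. Its 7 guides held 328 and 339 CPM in plasmid libraries 1 and 2, 250 CPM at day 5 (95% interval 220 to 282), 223 CPM at day 8 (196 to 254) and 150 CPM at day 12 (126 to 178). The score was -0.56 at day 5 (SD 0.74), -0.52 at day 8 (SD 0.39) and -1.28 at day 12 (SD 0.72, n = 7 guides). Between day 8 and day 12 the score moved by -0.76. Ep300 fell by 0.089 log2 units per day (edgeR quasi-likelihood adjusted p = 0.0021).

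Of the 7 guides to Ep300, 6 were below 0 at day 12 and 5 below the 5th percentile of the non-targeting guides. A set of 3 guides overlaps around one stretch and is shown because its members differed.
TFMouse_02998: caGCGCCGGGAGCAAGCTAA
TFMouse_02993: AGCAAGCTAATGgggaagtg
TFMouse_03000: CATTAGCTTGCTCCCGGCGC

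TFMouse_02998 and TFMouse_02993, on one strand, had changes of -1.74 and -1.44 at day 12. TFMouse_03000, on the opposite strand, had 87 and 43 plasmid reads, 54 at day 5, 23 at day 8 and 28 at day 12, a change of 0.09. It was the single Ep300 guide above 0.

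The paralog of Ep300, Crebbp (chromosome 16, 4081334 to 4213957), had a score of -0.26 at day 12 (SD 1.20, n = 9 guides). Its slope did not pass (0.021 log2 units per day, edgeR quasi-likelihood adjusted p = 0.0863). The 9 guides of Crebbp ran from -2.89 to 1.00 and the 7 of Ep300 from -1.94 to 0.09, so the guides of these paralogs overlapped, and the difference between the genes was not tested. Crebbp guides held 517 and 524 CPM in plasmid libraries 1 and 2, 500.1 CPM at day 5, 526 CPM at day 8 and 653 CPM at day 12, so the sum lay above both plasmid libraries at day 12 while the median lay below them. The guide TFMouse_01873 held 34.7% of the gene's reads at day 12 and had a change of 1.00, while 5 of 9 guides were below 0.

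Among the other MYST genes and scaffolds, Kat6a (chromosome 8, 22859442 to 22943259) had scores of -0.43 (day 5), -0.18 (day 8) and -0.29 (day 12, SD 0.88, n = 9 guides). Its guides held 534 and 449 CPM in plasmid libraries 1 and 2, 387 CPM at day 5, 419 CPM at day 8 and 356 CPM at day 12. Kat6a fell by 0.037 log2 units per day (edgeR quasi-likelihood adjusted p = 0.0291), a call that was lost without plasmid library 1 (adjusted p = 0.223) and with no minimum of plasmid reads (adjusted p = 0.0972). The most-read Kat6a guide in plasmid library 1, TFMouse_06219, held 20.7% of the gene's reads there and had a change of -2.46 at day 12. Of the 9 guides, 2 were called lower on their own, TFMouse_06219 and TFMouse_06218. Both were already low at day 5 (-2.38 and -1.42) and moved little from there to day 12 (-0.08 and -0.22), so the slope per day is no steady loss. The kept guides of Kat6a ran from -2.46 to 0.36 and those of Kat7 from -5.04 to -2.78, and the difference between the genes was not tested. The Kat7 guide TFMouse_06221, left out by the plasmid filter, had 100 and 24 plasmid reads and 11 at day 12, so the Kat7 range leaves out a milder loss.

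Brpf3, a scaffold of HBO1 complexes (chromosome 17, 28801126 to 28838789), had a score of -0.09 (SD 0.51, n = 9 guides) and did not pass (adjusted p = 0.238). Its guides held 462 and 435 CPM in plasmid libraries 1 and 2, 483 CPM at day 5, 529.8 CPM at day 8 and 485 CPM at day 12. The day 12 interval, 441 to 532, overlapped those of both plasmid libraries. The changes of single guides, from -1.10 to 0.64, met those of Brpf1 only at the edge, where the highest Brpf1 guide stood at -1.08. The difference between Brpf1 and Brpf3 was not tested.

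Trrap, a large scaffold of the TIP60 and SAGA complexes (chromosome 5, 144767737 to 144859778), had scores of 0.34 (day 5), -0.15 (day 8) and -0.07 (day 12, SD 1.09, n = 9 guides). Its guides held 605 and 570.4 CPM in plasmid libraries 1 and 2, 813 CPM at day 5, 655 CPM at day 8 and 800.0 CPM at day 12, and these sums gave a slope above 0 (0.033 log2 units per day, edgeR quasi-likelihood adjusted p = 0.0413). TFMouse_14016 alone held 43.7% of the Trrap reads at day 12, with a change of 0.94. Of the 9 guides, 3 were called lower and 3 higher on their own, and the guides ran from -2.16 to 0.97. The slope call was lost without plasmid library 1 (adjusted p = 0.12), without plasmid library 2 (adjusted p = 0.164), without day 12 (adjusted p = 0.06), with total counts (adjusted p = 0.106) and with libraries in order in place of days (adjusted p = 0.0732). With library sizes from the non-targeting guides the slope turned to -0.020 (adjusted p = 0.196), so the call passed in 5 of 11 alternatives.

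Kat2b, which codes for the SAGA acetyltransferase PCAF (chromosome 17, 53566774 to 53672721), had the highest score of the 15 at day 12, 0.43 (SD 0.73, n = 7 guides), with 6 of 7 guides above 0. All 7 together held 627 and 609 CPM in plasmid libraries 1 and 2, 735 CPM at day 5, 836 CPM at day 8 and 909 CPM at day 12, and each library of cells lay above both plasmid libraries. The slope was 0.048 log2 units per day (edgeR quasi-likelihood adjusted p = 0.000693). That score is below the non-targeting median of 0.58, and with library sizes taken from the non-targeting guides the slope was -0.0059 (adjusted p = 0.614).

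The 4 ING genes code for PHD-finger proteins that bind methylated histone H3, Ing1 and Ing2 in SIN3 deacetylase complexes, Ing3 in TIP60 and Ing4 in HBO1 complexes. Their scores at day 12 were -0.38 for Ing1 (SD 0.92), -0.47 for Ing2 (SD 0.88), 0.21 for Ing3 (SD 0.77) and 0.41 for Ing4 (SD 0.69), over 8 to 10 guides. Ing1 and Ing2 lie on chromosome 8, Ing3 and Ing4 on chromosome 6.

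Ing2 came closest to the 2-fold line of the 11 genes that did not reach it, and crossed it in a pair of alternatives. Its score was -1.05 when centred on the non-targeting guides, which took the count of all genes at or below -1 from 265 to 450. It was -1.44 with at least 100 plasmid reads, where 3 of the 10 Ing2 guides remained. Its guides held 618 and 691 CPM in plasmid libraries 1 and 2, 534 CPM at day 5, 465 CPM at day 8 and 448 CPM at day 12. Ing2 fell by 0.049 log2 units per day (edgeR quasi-likelihood adjusted p = 0.00178), with 4 of 10 guides below the 5th percentile of the non-targeting guides. Ing4 guides held 411 and 393 CPM in plasmid libraries 1 and 2, 479 CPM at day 5, 419 CPM at day 8 and 601 CPM at day 12. Ing4 was called higher (0.040 log2 units per day, adjusted p = 0.0221), and no kept guide of Ing4 lay below that percentile. TFMouse_05832, the Ing4 guide set aside by the plasmid filter, had 68 and 26 plasmid reads. Its reads in the cell libraries were 2, 5 and 2, from the earliest to the latest, so the kept guides leave out a loss. The Ing4 call was lost without plasmid library 2 (adjusted p = 0.0668) and without day 12 (adjusted p = 0.396), and its slope turned to -0.013 with library sizes from the non-targeting guides. Ing1 guides held 732 and 869 CPM in plasmid libraries 1 and 2, 638 CPM at day 5, 693 CPM at day 8 and 699.7 CPM at day 12, and Ing3 guides 448 and 469, 635, 654 and 546 CPM in the same order. Neither passed (edgeR quasi-likelihood adjusted p = 0.182 and 0.0794).

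Brd7 and Brdt are the bromodomain genes named as such. Brd7, a subunit of the PBAF form of SWI/SNF (chromosome 8, 88329894 to 88362252), had a score of -0.04 (SD 1.26, n = 7 guides) and did not pass (adjusted p = 0.388). Its guides held 458 and 444 CPM in plasmid libraries 1 and 2, 478 CPM at day 5, 383 CPM at day 8 and 424 CPM at day 12. Brdt, a BET protein known from male germ cells (chromosome 5, 107331116 to 107387061), had a score of 0.30 (SD 1.10, n = 9 guides). Its guides held 589 and 545 CPM in plasmid libraries 1 and 2, 691 CPM at day 5, 664 CPM at day 8 and 706 CPM at day 12. The slope of 0.027 log2 units per day was called higher (edgeR quasi-likelihood adjusted p = 0.0223). The Brdt call was lost without plasmid library 1 (adjusted p = 0.062) or 2 (adjusted p = 0.127) and with total counts (adjusted p = 0.11), and the slope reversed with library sizes from the non-targeting guides (-0.027, adjusted p = 0.0445).

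In Brd7, Brdt and Crebbp 1 guide stood far below the rest of its gene, and these 3 guides, picked after their values were seen, are poor in G and C.
TFMouse_01159: attacacaAATAGAGCCAAC
TFMouse_01168: ggaaaataagtattatgaga
TFMouse_01871: cattgcaggtataaacaaag

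They have 7, 5 and 7 G or C bases of 20 and changes of -2.95, -2.76 and -2.89 at day 12. At day 5 they already stood at -1.25, -2.11 and -2.36, and day 12 against day 5 gave -1.70, -0.65 and -0.53. Across the non-targeting guides the day 12 change was 0.125 log2 units higher per G or C base. The same slope was 0.126 at day 5 and -0.0014 for day 12 against day 5. With the day 12 line subtracted, the 3 guides stood at -2.47, -2.03 and -2.41. TFMouse_01160, which shares the capital bases of the Brd7 guide TFMouse_01159, stood at 0.97 before that subtraction. The lowest guides of Kat5 and Brpf1 also stood far below the rest of their genes, at -5.69 and -5.24, with 11 and 8 G or C bases. The Kat5 value comes from 0 reads and depends on the added 1. Over all 15 genes the lowest guide had fewer G or C bases than its gene's median in 8, as many in 3 and more in 4. The scores of Kat7 (-3.49), Brpf1 (-1.96), Kat5 (-1.46) and Ep300 (-1.17) at day 12 stayed past 2-fold after the same subtraction.

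At the earlier days fewer of the 15 genes stood past 2-fold. At day 5 Kat7 alone did (6.67%, against 6.3% of all genes), which is the background share. Its score there, -1.01, lies at the 2-fold line and was -0.98 with the GC line subtracted. At day 8 there were 3, Kat7, Kat5 and Brpf1 (20%, against 12.1% of all genes). No member stood at or above 1 at day 5 or day 8, where 0.0595% and 0.178% of all genes did.

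Setting day 12 against day 5 leaves the plasmid values out of the ratio and gives the change after the first library of cells. Kat7 and Brpf1 were past 2-fold below day 5 (13.3% of the 15, against 7.02% of all genes), and none was above (0.832% of all genes). Kat7 had a score of -2.61 (SD 0.61, 8 of 8 guides below 0), so that 16.4% of its day 5 abundance was left, and it held the rank 3 from the bottom of all genes. Brpf1 had a score of -1.39 (SD 0.58, 10 of 10 guides below 0). Kat5 (-0.79, 7 of 10 guides below 0) and Ep300 (-0.75, 6 of 7) did not reach 2-fold. The other 11 genes lay between -0.58, the score of Trrap, and 0.19, that of Kat2b.

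Partner genes of these enzymes were counted for comparison, from lists chosen with earlier results of these data known. The shares over all genes to read each count against are 25.2% with a slope called lower, 34.7% with one called higher and 15.8% past 2-fold below the plasmid pool at day 12. Of 6 TIP60 partner genes, 4 fell and stood past 2-fold below the plasmid pool: the ATPase genes Ruvbl2 (-3.32) and Ruvbl1 (-3.16), which also serve other complexes, the acetyl-lysine reader Yeats4 (-1.94) and Dmap1 (-1.72). The other 2, named after their values were seen, had scores above 0: Ep400 (0.45), the ATPase gene of the TIP60 complex, was called higher (edgeR quasi-likelihood adjusted p = 0.000923), and Epc1 (0.43) did not pass (adjusted p = 0.0985). Kat5, at -1.36, lay between these groups of partner genes, above the first 4 and below Ep400 and Epc1.

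Of 3 JADE genes, which also code for scaffolds of HBO1 complexes, none fell. Their scores were -0.91 for Jade1, -0.41 for Jade3 and -0.26 for Jade2, and the slope of Jade2 was called higher although its median was below 0. The JADE genes and Hexim1 were named after their values were seen. Of 8 SAGA and ATAC partner genes 6 fell and 4 were past 2-fold, Zzz3 (-1.82), Tada2a (-1.72), Supt3 (-1.71) and Dr1 (-1.67), while Kat2b stood at 0.43. Of 3 MSL and NSL partner genes 2 fell, Hcfc1 (-2.15) and Phf20 (-0.83), and Msl3 (0.34) was called higher. Hexim1 (-0.08), an inhibitor of the elongation factor P-TEFb, did not pass.

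Of 14 other bromodomain genes 6 fell, 4 of them past 2-fold, and Trim28 (-2.95) was the lowest and Sp140 (-1.53) next. Of 5 other acetyltransferase genes 1 fell, Gtf3c4 (-1.57), and 3 were called higher, Ncoa3 (2.00) the highest among them. Of 16 histone deacetylase and sirtuin genes, whose proteins remove acetyl groups from proteins, 4 fell and 6 were called higher, and 2 were past 2-fold, Hdac3 (-2.21) and Hdac1 (-1.82). Those deacetylase counts lie near the shares over all genes. Their median score was -0.08, against -0.26 for the 15 genes and 0.0090 for all genes. The 15 include Ing1 and Ing2, which belong to deacetylase complexes, so this does not set opposite activities apart. Calls of higher slopes depended on the scaling: over all 1682 genes there were 584, and 19 with library sizes from the non-targeting guides.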

How the data were processed

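Guide RNA reads were counted in genomic DNA of transduced mouse ES cells and in the plasmid pool. The deposited files hold raw counts, reads per guide that were not normalized, as the values and, per the file headers, the columns show. Per the submitters' processing notes, cutadapt, Bowtie and featureCounts were used with the build mm10, and versions are not given. The 15 gene names matched symbols of a RefSeq table of GRCm38.p6, whose coordinates are given.

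Counts of guides with at least 30 reads in both plasmid libraries were scaled with TMM factors in edgeR 4.0.16 (R 4.3.3). Scores, the 2-fold rule and the slope test are described with the results. Alternatives covered scaling (also DESeq2 1.42.0), filter, pseudocount, score, GC content, time scale and libraries left out. Genes given with values in every library were Kat7, those past the slope threshold or 2-fold, and their paralogs, and of each partner list at most the 4 largest called scores were named, with the exceptions stated. The members and partner lists were chosen with earlier results of these data known. The plasmid libraries are 2 libraries of 1 kind, and nothing says they came from separate preparations, so their spread may be technical.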

Additional observations from a re-analysis of the deposited data

How the results depend on the processing

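The day 12 scores of Kat7, Brpf1, Kat5 and Ep300 stayed at or below -1 under all 11 alternatives, at -4.03 to -2.78, -2.77 to -1.90, -1.94 to -1.15 and -1.86 to -1.02, and their slopes passed in all 11. The alternative with at least 100 plasmid reads is no check on a gene score, as it rests on 1 guide for Kat7, Ep300 and Ing4, 2 for Kat5 and 3 for Brpf1 and Ing2. Centring on the non-targeting guides lowered the median of all genes at day 12 to -0.57 and raised the count of members at or below -1 to 5 at day 12 (with Ing2), 5 at day 8 and 3 at day 5. With at least 100 plasmid reads, which left 33 of 130 guides, 2 members were at or below -1 at day 5, 1 (Ing4) was at or above 1 at day 12, and 10 and 1 member guides lay below and above the non-targeting range. Their slopes were then called for 10 guides lower and 9 higher, and 376 genes higher. A pseudocount of 5 or the GC line left 0 members past 2-fold at day 5. The GC line put 1 guide above the range, and the 1st percentile as the limit left 32 guides below it.

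Library sizes from the non-targeting guides gave slopes called lower for 10 members, 75 member guides and 1068 genes and higher for 0, 2 and 19. The slopes of Brdt (-0.027), Ing4 (-0.013), Kat2b (-0.0059) and Trrap (-0.020) then reversed. The higher calls therefore depended on the scaling, as this alternative changes nothing else. With total counts, higher calls were 2 members, 10 member guides and 386 genes, and DESeq2 called 11 member guides higher. Leaving out 1 library gave 1 to 4 members and 7 to 19 member guides called higher. No paired analysis was possible because each day had 1 library of cells and nothing matches the plasmid libraries to them. Day 12 counts of 0 to 8 reads per Kat7 guide limit how far its loss can be measured.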

Other observations

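Brd7 and Ing3 each had a pair of guides with 0 reads in all 5 libraries, and in both genes these 2 guides are exact reverse complements of each other.
TFMouse_01153: TGTATGCTTACAACATCACC
TFMouse_01155: GGTGATGTTGTAAGCATACA
TFMouse_05823: CTTCACGGAGATGCGCGAGA
TFMouse_05824: TCTCGCGCATCTCCGTGAAG

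The same held throughout the library. Of 17820 guides, 220 have their exact reverse complement among the other guides, and all 220 had 0 reads in every library, plasmid included. Of the 223 guides without a read, 3 have no reverse complement in the library, and 2 of those 3 share 1 sequence. Whether such guides were present in the plasmid pool cannot be read from these counts. The score of Ing3 rests on the other 8 guides. That of Brd7 rests on 7, since TFMouse_01154, with 69 and 21 plasmid reads, was also left out.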
